A study of Mus musculus with 6 samples.

Results

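The genes described here encode the proteins of the cytosolic ribosome. They were chosen by symbol alone: rows of the deposited table named Rpl or Rps with a number, together with Rplp0, Rplp1, Rplp2 and Rpsa. Kinases of the Rps6k group, Rps19bp1 and pseudogene names were left out. The rule took 84 of 16426 rows, 51 for the large and 33 for the small subunit. Of these, 77 are standard subunit proteins and 7 carry the symbol of a paralog, a second gene copy such as Rpl22l1 or Rps27l.

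The ribosome is built from a small subunit, which reads the mRNA, and a large subunit, which joins amino acids. Most ribosomal proteins are made in equal amounts, one copy for each ribosome, and are put together with ribosomal RNA in the nucleolus by assembly factors. Their mRNAs begin with a stretch of pyrimidines, the terminal oligopyrimidine (TOP) tract, through which the mTOR pathway controls their translation. In the liver, a tissue that exports large amounts of plasma protein, ribosomal protein mRNAs are among the abundant transcripts.

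The series holds bulk RNA sequencing of whole liver from 6 male C57/BL mice. By the labels and protocols, 3 mice were normal controls, which received saline, and the livers of the other 3 were fibrotic after 10 weeks of 20% carbon tetrachloride (CCl4), a liver toxin, injected ip. A didymin group (CCl4 as above with didymin for 6 weeks) is named in the design text and is not analysed here. Per the file headers, the deposited table compares 3 libraries called ly_A (set A) with 3 called ly_B (set B), and neither name matches a sample label. The comparison is therefore described by set names alone, and whether a difference goes with CCl4 cannot be read from it. The 18 columns of single libraries entered no computation. Values per library, the spread between libraries and the depth behind each gene are therefore not given. The 3 columns used hold differences and no levels, so the identity of the tissue could not be checked against the level of liver markers.

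Values are log2 fold changes as deposited by the authors, read as set A over set B. A gene counts as called when the authors' adjusted p was under 0.05, and a called gene with a positive value is higher in set A. Whether a set held fewer cells of a type or less RNA per cell cannot be told apart in whole tissue. Which mouse each library of a set came from is not given, so the p-values measure only the spread between these libraries, which may be technical.

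The pyrimidine tract can be seen at the annotated starts of some members. The RefSeq promoter table (build GRCm38.p6) matched 64 of the 84 symbols with 76 windows of 300 bases, running from 250 before to 50 after the start. Below are the 30 bases centred on the start, read 5′ to 3′ on the gene's strand, with the longest run of C and T in capitals. For a member with several windows, the window with the longest run was taken. Windows on the chromosome that carries Rpl17 were left out before members were chosen for display. Among the rest, they are shown for the 4 matched members with the largest calls towards set A and the matched members called towards set B. The 2 matched members nearest to no difference are shown as well. Rpl17 was called towards set A with a larger value than Rps18, and could not be among the 4.
Rps18 (chr17:33955651-33955680, minus strand): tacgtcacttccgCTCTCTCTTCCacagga
Rpl35a (chr16:33056467-33056496, plus strand): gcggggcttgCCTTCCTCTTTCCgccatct
Rpl14 (chr9:120571502-120571531, plus strand): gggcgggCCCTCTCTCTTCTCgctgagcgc
Rps15 (chr10:80292416-80292445, plus strand): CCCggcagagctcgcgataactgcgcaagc
Rpl7l1 (chr17:46782642-46782671, minus strand): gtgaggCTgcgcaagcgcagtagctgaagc
Rps7 (chr12:28635939-28635968, minus strand): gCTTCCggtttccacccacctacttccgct
Rpl13a (chr7:45128731-45128760, minus strand): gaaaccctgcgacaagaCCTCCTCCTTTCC
Rpl7a (chr2:26910792-26910821, plus strand): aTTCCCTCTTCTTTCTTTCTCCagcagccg

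The runs in these windows were 11 bases in Rps18, 13 in Rpl35a, 14 in Rpl14, 3 in Rps15, 2 in Rpl7l1, 5 in Rps7, 13 in Rpl13a and 21 in Rpl7a. Those of Rps15 and Rpl13a reach the edge of the 30 bases, so the full runs may be longer. Long runs thus stood at members called towards set A and at members with almost no difference, and the annotated start need not be the start used in these livers. A run of at least 8 pyrimidines in the 30 bases was present in 28 of 76 member windows (36.8%) and in 12.0% of all 32851 windows of the table. It was present in 6 of 20 windows of members called towards set A and in 22 of 51 windows of members that were not called. A run of at least 5 pyrimidines over the start base itself stood in 27.6% of member windows and in 10.1% of all windows. The letters CCGGAAG, bound by ETS factors, were found on either strand in 27 of 76 member windows (35.5%) and in 8.86% of all windows. The letters AAGATGG, part of the YY1 site, were found on either strand in 12 member windows (15.8%) and in 6.34% of all windows. The letters AAG end the first and begin the second, so matches can share bases, and a match describes the sequence only.

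Most ribosomal protein genes had a small positive difference, towards set A. Of the 84 members, 82 had a deposited adjusted p under 1 and are counted here as tested. By the authors' deposited table, 25 of these were called towards set A and 3 towards set B, which is 30.5% and 3.66% of the members, beside 18.1% and 17.7% of all 14114 tested genes. In both directions together 28 members were called (34.1%), beside 35.8% of all tested genes, so the share called was near the background, and the split by direction was not. The middle log2 fold change (median) of tested members per the authors' deposited table was 0.38 (quartiles 0.13 and 0.62), beside 0.07 (quartiles -0.49 and 0.72) over all tested genes. A positive value was found for 67 of 82 members. The differences were modest: 4 members were called at 2-fold or more towards set A (4.88%, beside 10.9% of all tested genes) and 0 towards set B (beside 7.85%). At an adjusted p under 0.01, 13 members were called towards set A and 2 towards set B (15.9% and 2.44%), beside 12.3% and 12.7% of all tested genes and 25.0% in either direction. With an unadjusted p under 0.05 the counts were 33 and 3, beside 22.9% and 21.6% of all tested genes and 44.5% in either direction. A Benjamini-Hochberg adjustment over all 16426 rows gave 23 and 3 members, beside 17.4% and 17.0% of all tested genes and 34.5% in either direction. A Bonferroni adjustment left 1 member, Rpl36, towards set A and 0 towards set B, beside 4.58% and 4.81% of tested genes and 9.39% in either direction.

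**Figure D1:**
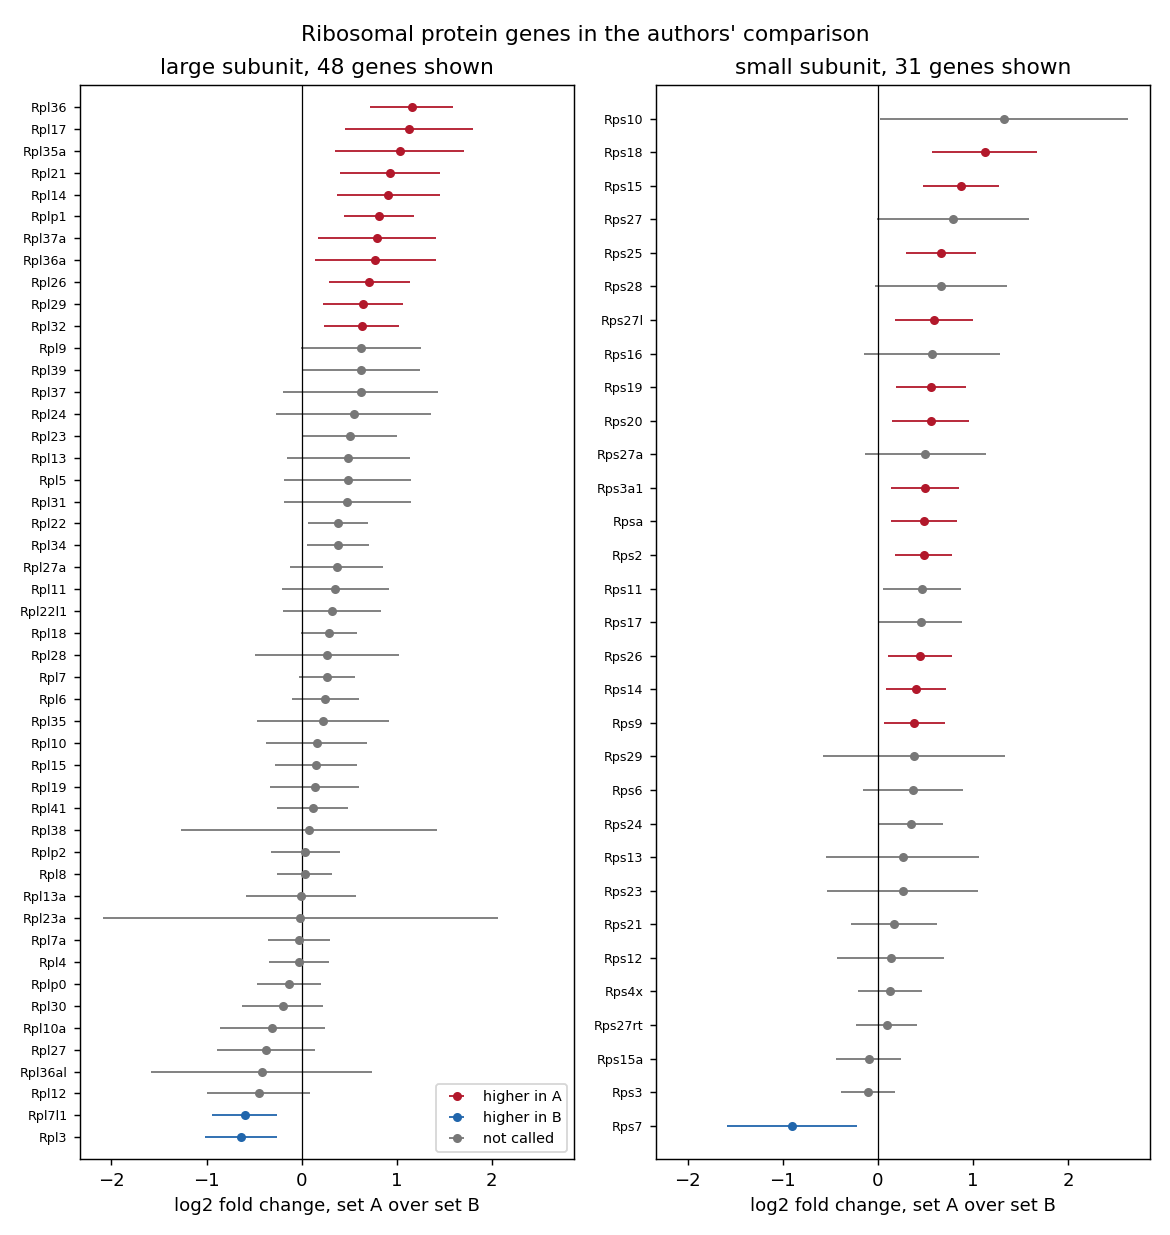
Log2 fold change of set A over set B (x axis) for tested ribosomal protein genes (y axis), with 48 of the 49 of the large subunit on the left and 31 of the 33 of the small subunit on the right; the other 3 are not drawn because their values are not reported here. Points are the authors' deposited values, coloured by call; bars are 95% intervals from the standard error that the deposited p implies under a normal test. The called points towards set A reach from 0.39 (Rps9) to 1.16 (Rpl36), and the 3 towards set B from -0.60 (Rpl7l1) to -0.91 (Rps7).

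The plot of members shows how unequal their precision was. If the deposited p is read as a two-sided normal test of the log2 fold change, the default of DESeq2, each p implies a standard error. That reading was not stated by the authors. The implied standard error had a median of 0.24 over the members and 0.29 over all tested genes, and ran from 0.15 (Rps3) to 1.06 (Rpl23a). Of the 54 members that were not called, 42 had a positive and 12 a negative value, and 8 had an unadjusted p under 0.05, all of them positive. The implied 95% interval stayed within 2-fold for 34 of the 54 and reached 2-fold for 20. A missing call therefore does not show that a member was equal in the sets.

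Large subunit members were called in both directions, 12 of 49 towards set A and 2 towards set B by the calls of the authors' deposited table. These were 24.5% and 4.08% of the 49, beside 18.1% and 17.7% of all tested genes. Rpl36, a small protein of this subunit, had the largest value of all called members, 2.23-fold higher in set A per the authors' deposited table (log2 1.16, adjusted p = 3.11e-06). Rpl17, a protein beside the opening of the exit tunnel, was 2.19-fold higher in set A (log2 1.13, adjusted p = 0.00499), and Rpl35a, mutated in some patients with the inherited anaemia Diamond-Blackfan, was 2.04-fold higher (log2 1.03, adjusted p = 0.0112) per the authors' deposited table. Others called towards set A per the authors' deposited table were Rpl21 at 0.93, Rpl14 at 0.91, Rplp1 at 0.81, Rpl37a at 0.79, Rpl36a at 0.78, Rpl26 at 0.71, Rpl29 at 0.65 and Rpl32 at 0.63. The adjusted p-values of these per the authors' deposited table ran from 0.000121 (Rplp1) to 0.0491 (Rpl36a). Towards set B stood Rpl3, a protein near the peptidyl transferase centre, 1.55-fold (log2 -0.63, adjusted p = 0.00459) and Rpl7l1, an Rpl7-like protein of the nucleolus, 1.51-fold (log2 -0.60, adjusted p = 0.00283) per the authors' deposited table. The median over the 49 was 0.32.

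The small subunit had fewer members below zero. By the authors' deposited table, 13 of 33 were called towards set A and 1 towards set B. These were 39.4% and 3.03% of the 33, beside 18.1% and 17.7% of all tested genes. A positive value was found for 30 of 33, with a median of 0.45. Rps18, of the head of the small subunit, was 2.18-fold higher in set A per the authors' deposited table (log2 1.12, adjusted p = 0.000433). Rps15, whose tail reaches towards the decoding centre, was 1.83-fold higher (log2 0.87, adjusted p = 0.000159) per the authors' deposited table. Others called towards set A per the authors' deposited table were Rps25 at 0.67, Rps27l at 0.59, Rps19 and Rps20 both at 0.56, Rps3a1 at 0.50, Rpsa at 0.49, Rps2 at 0.48, Rps26 at 0.44, Rps14 at 0.40 and Rps9 at 0.39. The adjusted p-values of these per the authors' deposited table ran from 0.00225 (Rps25) to 0.0484 (Rps9). Rps7, which takes part in assembly of the small subunit, went the other way and was 1.87-fold higher in set B per the authors' deposited table at a log2 value of -0.91 (adjusted p = 0.0301). The median of the large subunit lay 0.13 below that of the small subunit (large minus small -0.13), and 0.09 below without the paralogs; this difference was not tested, because genes of the same libraries are not replicates.

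The threshold divided members with like values. Just inside it stood Rps9 (log2 0.39, adjusted p = 0.0484) and Rpl36a (log2 0.78, adjusted p = 0.0491), and just outside it Rpl22 (log2 0.38, adjusted p = 0.0503) and Rpl34 (log2 0.38, adjusted p = 0.0575), all per the authors' deposited table. The values nearest to no difference per the authors' deposited table belonged to Rpl13a at -0.01 (adjusted p = 0.987) and Rpl23a at -0.01 (adjusted p = 0.994). The implied 95% interval was -0.58 to 0.57 for Rpl13a and -2.09 to 2.07 for Rpl23a, so the value of Rpl23a fixes little. Rps10, singled out after its value was seen, had the largest log2 fold change of the tested members, 1.33, and was not called per the authors' deposited table (adjusted p = 0.104), with an implied interval of 0.03 to 2.63.

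Of 4 proteins listed for the stalk, 1 was called towards set A and 0 towards set B. The 25.0% towards set A stands beside 18.1% of all tested genes, and the 0 towards set B beside 17.7%. With so few members these shares are not told apart from those of all tested genes. The stalk of the large subunit, which recruits translation factors, is made of Rplp0 with Rplp1 and Rplp2, beside Rpl12. From the authors' deposited table, Rplp1 was higher in set A (log2 0.81, adjusted p = 0.000121), while Rplp2 stood at 0.04 (adjusted p = 0.885), Rplp0 at -0.13 (adjusted p = 0.580) and Rpl12 at -0.45 (adjusted p = 0.198). The implied 95% intervals of the partner proteins Rplp1 (0.45 to 1.18) and Rplp2 (-0.32 to 0.40) did not overlap, and the difference itself was not tested. Rpl5 and Rpl11, which bind the smallest ribosomal RNA and can inhibit Mdm2, the regulator of p53, stood at 0.49 (adjusted p = 0.269) and 0.35 (adjusted p = 0.344) per the authors' deposited table, and neither was called.

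Of 9 proteins that line the exit tunnel or its opening, 2 were called, Rpl17 and Rpl26, both higher in set A per the authors' deposited table, with a median of 0.38 over the 9. The members not called were Rpl4 at -0.03, Rpl23a at -0.01, Rpl19 at 0.14, Rpl35 at 0.22, Rpl22 at 0.38, Rpl31 at 0.48 and Rpl39 at 0.62 per the authors' deposited table. Of 10 small subunit proteins along the path of the mRNA or at the decoding site, 4 were called, Rps15, Rpsa, Rps2 and Rps26, all higher in set A per the authors' deposited table, with a median of 0.46. Rps6, the substrate of the S6 kinases, stood at 0.37 (adjusted p = 0.286) and Rps3 at -0.10 (adjusted p = 0.612) per the authors' deposited table. Of 17 genes mutated in Diamond-Blackfan anaemia, 4 were called towards set A (Rpl26, Rpl35a, Rps19 and Rps26) and 1 towards set B (Rps7) per the authors' deposited table, with a median of 0.45. Rps19, the gene most often mutated in that disease, stood at 0.56 (adjusted p = 0.0108) per the authors' deposited table. The shares of these groups are set beside 18.1% and 17.7% for all tested genes, and with so few members no group is told apart from the rest.

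Of the 5 tested paralogs, 1 was called in each direction. That was 20.0% each way, near the 18.1% and 17.7% of all tested genes. Differences within pairs were not tested. Rps27l, a p53-inducible relative of Rps27, was higher in set A (log2 0.59, adjusted p = 0.0173), and Rps27 stood at 0.79 (adjusted p = 0.118) per the authors' deposited table. The retrogene Rps27rt stood at 0.09 (adjusted p = 0.688) per the authors' deposited table. Rpl7l1 was called towards set B at -0.60, while Rpl7 stood at 0.27 (adjusted p = 0.157) per the authors' deposited table. Rpl22l1 stood at 0.32 (adjusted p = 0.348) and Rpl22 at 0.38, and Rpl36al at -0.42 (adjusted p = 0.613) and Rpl36a at 0.78, per the authors' deposited table. Rpl36al and Rpl36a encode nearly identical proteins, and the implied interval of Rpl36al, -1.58 to 0.74, is wide. Rpl3l, a form of Rpl3 in muscle, and Rpl39l, a form of Rpl39 in testis, were treated as not tested, having an adjusted p of 1. The value of 6.87 for Rpl3l per the authors' deposited table comes with a p of 1 and is no measured fold.

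Of the standard subunit proteins, 3 have symbols that the rule does not take, and none was called. From the authors' deposited table, Fau, which carries a small subunit protein, stood at 0.05 (adjusted p = 0.887) and Rack1, a scaffold on the small subunit, at 0.01 (adjusted p = 0.949). Rps27a, a fusion with ubiquitin, stood at 0.50 (adjusted p = 0.227) per the authors' deposited table.

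Ribosomal protein genes have many processed pseudogenes, and reads can be shared among copies. In GENCODE M21, 60 of the 84 members have at least 1 annotated pseudogene named after them, 292 in all and up to 24 for 1 member (Rpl31). How the authors assigned such reads is not given in the sources used here, so single values of members with near-identical copies are uncertain. The table holds 6 tested rows with a pseudogene name, 2 of them called towards set A and 0 towards set B per the authors' deposited table. These were 33.3% and 0.0% of the 6, beside 18.1% and 17.7% of all tested genes, and 6 rows are few. Rpl10-ps3 stood at 1.19 (adjusted p = 1.91e-07) beside Rpl10 at 0.16 (adjusted p = 0.687), and Rpl36a-ps1 at 0.90 (adjusted p = 0.0280) beside Rpl36a at 0.78 per the authors' deposited table. Over the 82 tested members, the Spearman correlation of the number of named pseudogenes was 0.10 with the log2 fold change and 0.21 with the implied standard error, given as descriptions of genes that share libraries.

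The other genes of translation did not all lie on the same side. Of 75 mitochondrial ribosomal proteins, 20 were called towards set A and 4 towards set B per the authors' deposited table. These were 26.7% and 5.33% of the 75, beside 18.1% and 17.7% of all tested genes. Their median was 0.32, close to that of the cytosolic members. The 3 with the largest called differences were Mrpl18 at 1.24, Mrpl42 at 1.22 and Mrpl27 at 1.16 per the authors' deposited table, each with an adjusted p of 0.000213 or less. Of 48 factors that make and assemble ribosomes, 0 were called towards set A and 32 towards set B (66.7%, beside 17.7% of all tested genes) per the authors' deposited table, with a median of -0.68. Tsr1, an assembly factor of the small subunit, was 4.26-fold higher in set B (log2 -2.09, adjusted p = 8.74e-10), Dkc1, the pseudouridine synthase dyskerin, 3.38-fold (log2 -1.76, adjusted p = 8.36e-08) and Utp20, a factor of early rRNA processing, 3.02-fold (log2 -1.60, adjusted p = 6.88e-13) per the authors' deposited table. At an unadjusted p under 0.05 in the same DESeq2 comparison the counts were 0 towards set A and 36 towards set B, and 2 of the 48 factors had a positive value.

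Initiation factors lay on the side of the assembly factors. Of 38, 2 were called towards set A and 20 towards set B per the authors' deposited table, with a median of -0.49. These were 5.26% and 52.6% of the 38, beside 18.1% and 17.7% of all tested genes. Eif6, which keeps the subunits apart, stood at -1.84 (adjusted p = 1.51e-09), the scaffold Eif4g1 at -1.33 (adjusted p = 3.40e-08) and Eif1, which guards start codon choice, at 1.09 (adjusted p = 8.88e-09) per the authors' deposited table. A further 19 genes were elongation factors and other proteins whose mRNAs also carry or are reported to carry a TOP tract. Of these, 3 were called in each direction per the authors' deposited table, with a median of -0.20. That was 15.8% each way, near the shares of all tested genes. Naca, a chaperone of new chains, was higher in set A (log2 0.75, adjusted p = 0.00103), and Eif2s3x (log2 -0.91, adjusted p = 0.00400) and the poly(A)-binding protein Pabpc1 (log2 -0.75, adjusted p = 0.000144) were higher in set B per the authors' deposited table. Of 23 tested genes of growth control, 1 was called towards set A and 10 towards set B per the authors' deposited table. These were 4.35% and 43.5% of the 23, beside 18.1% and 17.7% of all tested genes, and their median was -0.42. The kinase Rps6ka3 stood at -1.47 (adjusted p = 1.01e-08), Sesn1, a p53 target that restrains mTOR, at 1.34 (adjusted p = 2.29e-05) and Myc, which drives ribosome synthesis, at -1.24 (adjusted p = 0.000908) per the authors' deposited table. Some genes stand in more than 1 of these lists, and the differences between lists were not tested.

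**Figure D2:**
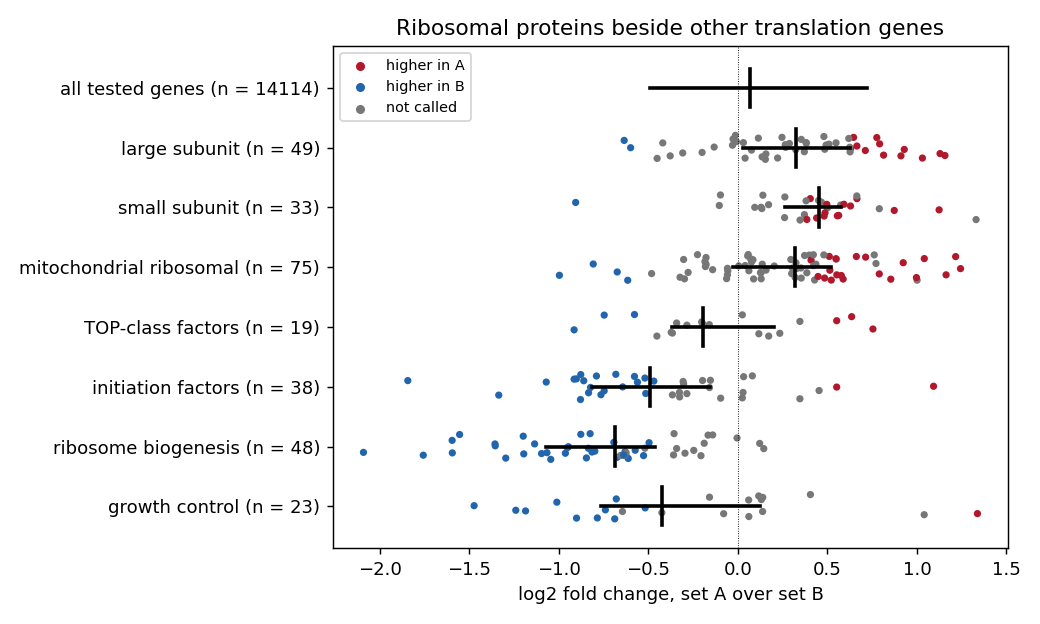
Log2 fold change of set A over set B (x axis) for tested genes of each list (rows, with the number of genes), from the authors' deposited values. Each point is a gene coloured by call, the vertical black bar is the median and the horizontal bar spans the quartiles; for all tested genes the points are left out. The medians of the large (0.32) and small (0.45) subunit lie to the right of 0.07 for all tested genes, and those of initiation (-0.49) and ribosome biogenesis (-0.68) to the left.

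The plot of the lists shows cytosolic and mitochondrial ribosomal proteins on the side of set A, and assembly and initiation factors on the side of set B. Transcript length moved with this direction. Ribosomal protein mRNAs are short, with a median length of 704 bases over the members by GENCODE M21, and 67 of 82 were under 1000 bases. Among the other tested protein-coding genes with transcripts under 1000 bases, 26.9% were called towards set A and 12.7% higher in set B per the authors' deposited table, with a median of 0.30. In the class of 3000 bases or more the shares were 12.4% and 24.2%, with a median of -0.13. Set beside short genes rather than all genes, the members' median (0.38) and share called towards set A (30.5%) were thus close, while their share called towards set B (3.66%) was lower; neither comparison was tested. The 15 members of 1000 bases or more had a median of 0.48 and the 67 shorter ones 0.38. The median length was 1134 bases for the mitochondrial ribosomal proteins, 1580.5 for the initiation factors and 1719.5 for the assembly factors. The medians of the initiation and assembly factors, -0.49 and -0.68, lay below the 0.18 of other genes of 1000 to 2000 bases. The part of length in these results was not tested.

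**Figure D3:**
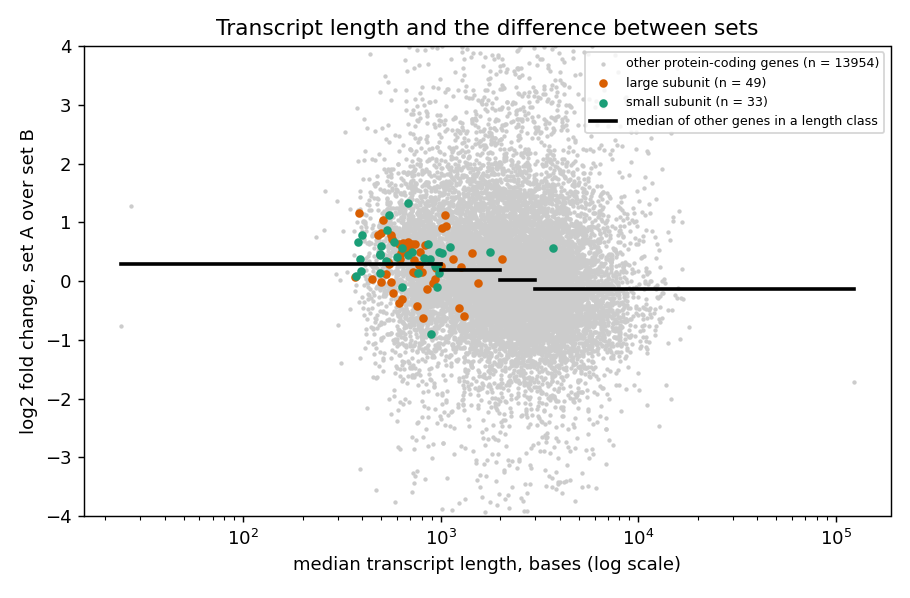
Log2 fold change of set A over set B (y axis, limited to 4 in each direction) against the median length of a gene's coding transcripts in bases (x axis, log scale) for tested protein-coding genes, with large subunit members in orange, small subunit members in green and the other 13954 genes in grey. Black lines are medians of the other genes in 4 length classes, falling from 0.30 under 1000 bases to -0.13 at 3000 bases or more; 227 of the other genes lie beyond the y axis.

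Over all 14036 tested protein-coding genes the Spearman correlation with the log2 fold change was -0.16 for transcript length and 0.15 for GC content. Over the 82 members it was -0.15 for length and 0.04 for GC content. These are descriptions across genes of the same libraries. Markers of several cell types also differed between the sets. By the authors' deposited table, 4 of 4 Kupffer cell and 3 of 3 endothelial markers were called towards set A. So were 3 of 6 leukocyte and 3 of 5 hepatocyte markers, and none of these cell types had a marker called towards set B. Over all tested genes, 18.1% were called towards set A and 17.7% towards set B. Hepatocyte markers were unequal per the authors' deposited table. Cyp2e1 (log2 3.88), Apoa1 (1.22) and Ttr (1.07) were called, and Alb (0.19) and Cps1 (-0.52) were not. The uncalled leukocyte markers were Ms4a1 (1.29), S100a8 (0.92) and Lyz2 (-0.10). Of the stellate cell markers 0 of 4, and of the cholangiocyte markers 0 of 3, were called in either direction. At an unadjusted p under 0.05 in that DESeq2 comparison, the stellate cell markers gave 1 towards set A and 2 towards set B, and the cholangiocyte markers 1 towards set A. Of the 2 tested erythroid markers, Hba-a1 was called towards set A (log2 1.97, adjusted p = 1.24e-06) and Alas2 was not called per the authors' deposited table. Whether cell makeup had a part in the values of the ribosomal protein genes was not tested.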

How the data were processed

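Per the labels' protocols, Trizol was used to isolate liver RNA and a NEBNext kit to build libraries. DESeq2 (no version) and build mm9 appear in the submitters' processing notes; how reads were aligned and counted is not given in the sources used here. For each symbol the deposited table holds the authors' log2 fold change, p-value and adjusted p-value. The sign was read as A over B because the comparison is named in that order. In its first line, read by eye on opening, a negative value went with lower values in set A. This direction was not checked in other rows. The 18 columns of single libraries match no label and entered no computation, so no new count model was fitted and depth is unknown. An adjusted p of 1 stood in 2312 rows, which were treated as not tested. Over the other 14114 the authors' deposited adjusted p-value equalled a Benjamini-Hochberg adjustment to within a relative difference of 9.47e-13.

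Counts, medians and quartiles were computed with pandas 2.3.3 and scipy 1.17.1 in Python 3.11.15. The code for adjustments and implied standard errors was checked on simulated data. The simulated p-values came from a normal test, so this check cannot show that the deposited p-values did. Members and lists were chosen with earlier results of these data known. Named genes were all called members, paralogs, the 2 uncalled with the smallest p and the 2 nearest 0, the 3 core proteins outside the rule, and the 3 largest called genes of each list. Lengths came from GENCODE M21 (GRCm38), which holds all 84 symbols, and promoter windows from RefSeq on GRCm38.p6, another build than mm9, so no coordinate was joined to the authors' data. The runs of 8 and 5 pyrimidines, the length classes, the implied errors and which windows are shown were chosen after the data were seen. Searches for the letters CTTTCC and CTTTC in these windows were also tried and are not reported. Protein features were not analysed here, and values of some genes the rule for named genes takes are not reported here. Alternatives were a stricter p, a 2-fold minimum, other adjustments, centring, and members with and without paralogs or the 3 core proteins.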

Additional observations from a re-analysis of the deposited data

How the results depend on the processing

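Of the 25 members called higher in set A, 13 passed at an adjusted p under 0.01, 4 with a 2-fold difference as well, and 1 (Rpl36) by Bonferroni adjustment; of the 3 higher in set B, 2, 0 and 0 passed. For the large subunit the 12 calls towards set A became 3 with a 2-fold difference and 1 by Bonferroni, and the 2 towards set B became 0 and 0, and 1 without the paralogs. For the small subunit the 13 calls towards set A became 4 at an adjusted p under 0.01, 1 with a 2-fold difference and 0 by Bonferroni, and the 1 towards set B became 0 under each of these. An adjustment over all rows left 23 and 3 calls, losing Rps9 and Rpl36a. These alternatives are stricter, or hold fewer members, by construction. The median of the members moved from 0.38 to 0.31 when centred on all tested genes, and the members above zero from 67 to 65. The large minus small median moved from -0.127 to -0.0882 without paralogs and to -0.134 with the 3 core proteins. The sign of neither value reversed under the alternatives run. Leaving out a library was not possible, because single libraries were not used. No paired analysis was possible because the columns carry no replicate number of a labelled sample. Depth behind a member is unknown, so calls cannot be weighed by reads.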
